A study of Mus musculus with 2 samples.

Results

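Glycolysis genes were followed from cortical progenitors to neurons in single-cell transcriptomes of the embryonic mouse dorsal telencephalon. They were 10 genes of the 32285 in the tables, taken by symbol: the glucose transporter gene Slc2a1, the enzyme genes Hk2, Aldoa, Gapdh, Pgk1, Eno1, Eno2 and Pkm, and the lactate dehydrogenase genes Ldha and Ldhb. This list was chosen with earlier results of these data known. All 10 were measured and passed the filter on low counts. Both libraries, called replicate 2 and replicate 4 after their titles, were wild type (WT) at embryonic day (E) 14.5 and came from the EomesDot line. Cells had been released with papain and captured with the 10x Genomics 3′ v3.1 kit. The methods of the study describe C57BL/6J mice; how these relate to the EomesDot line, what EomesDot stands for, and whether each library was 1 embryo is not stated. With 1 group of animals, the comparisons were between cell classes, each with a sum of UMIs (molecular tags that mark captured transcripts) per library. The p-values therefore measure the spread between these 2 libraries within classes, pooled over the 6 classes in the fit.

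Glycolysis splits glucose into pyruvate in the cytosol and yields ATP without oxygen. Lactate dehydrogenase turns pyruvate into lactate and back. Its A subunit, from Ldha, is the main form in tissues that release lactate, and its B subunit, from Ldhb, in tissues that burn it. Dividing cells, neural progenitors among them, are known for high glycolytic gene expression, and differentiating neurons for a shift toward mitochondrial respiration. Several of these genes are textbook targets of hypoxia-inducible factor (HIF), which binds DNA at the letters ACGTG.

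In total 3122 cells of 4301 barcodes were retained, 1199 in replicate 2 (median of 30810 UMIs) and 1923 in replicate 4 (median of 22826). They were clustered without the glycolysis genes and named from marker genes. Radial glial cells (RGC-like; 215 and 354 cells in replicates 2 and 4) line the ventricle and divide. Intermediate progenitor cells (IPC-like; 148 and 222 cells) arise from them. Excitatory neurons (558 and 860 cells) are the offspring of both. MGE interneuron-like cells (54 and 83 cells) carried markers of the medial ganglionic eminence, the ventral source of cortical interneurons. All 11 RGC markers were raised in each RGC-like cluster, 6 to 8 of 8 IPC markers in the IPC-like ones, and 8 or 9 of 11 markers in the excitatory ones. The IPC-like class also carried markers of its neighbours: its 3 clusters had 4 to 6 of the 11 excitatory markers raised and 0 to 6 of the 11 RGC markers. Excitatory markers summed to 2061 and 2289 UMIs per 1000000 there, beside 2528 and 2538 for the IPC markers.

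The bases before the transcription start are shown for 4 members that were higher in RGC-like cells than in excitatory neuron-like cells (Ldha, Pgk1, Hk2 and Gapdh) and for Ldhb, which was not, because ACGTG, read on both strands, lay before some members and not others. Sequences are 250 bases upstream of a RefSeq start, from mouse build GRCm38.p6, with ACGTG or its complement CACGT in capitals. Ldha (first listed start, chr7:46845554-46845803, plus strand) held 5 matches, of which 4 come from 2 copies of the palindrome CACGTG, the E-box, and its second listed start held 0. Pgk1 (chrX:106186850-106187099, plus strand) and Hk2 (chr6:82774455-82774704, minus strand) held 2 each. Gapdh (chr6:125165774-125166023, minus strand) and Ldhb (chr6:142507958-142508207, minus strand) held 0.
Ldha: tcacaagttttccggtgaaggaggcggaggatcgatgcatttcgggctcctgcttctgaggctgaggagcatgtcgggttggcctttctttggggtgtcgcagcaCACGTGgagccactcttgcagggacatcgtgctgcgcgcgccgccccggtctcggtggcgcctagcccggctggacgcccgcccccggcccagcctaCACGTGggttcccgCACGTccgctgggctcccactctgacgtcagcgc
Pgk1: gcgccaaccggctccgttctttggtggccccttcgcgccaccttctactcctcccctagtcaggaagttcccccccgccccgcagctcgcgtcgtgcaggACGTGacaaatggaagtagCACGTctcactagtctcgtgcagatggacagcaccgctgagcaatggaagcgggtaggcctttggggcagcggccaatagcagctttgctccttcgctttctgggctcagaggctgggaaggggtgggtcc
Hk2: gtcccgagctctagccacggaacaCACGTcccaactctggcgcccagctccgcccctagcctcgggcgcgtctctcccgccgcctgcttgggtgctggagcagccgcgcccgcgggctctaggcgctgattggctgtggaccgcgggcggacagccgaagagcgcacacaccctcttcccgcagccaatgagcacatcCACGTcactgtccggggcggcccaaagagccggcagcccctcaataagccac
Gapdh: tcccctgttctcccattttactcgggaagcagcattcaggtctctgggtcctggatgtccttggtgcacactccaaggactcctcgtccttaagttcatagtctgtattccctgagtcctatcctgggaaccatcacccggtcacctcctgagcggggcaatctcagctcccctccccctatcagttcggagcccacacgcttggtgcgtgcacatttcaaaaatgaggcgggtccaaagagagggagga
Ldhb: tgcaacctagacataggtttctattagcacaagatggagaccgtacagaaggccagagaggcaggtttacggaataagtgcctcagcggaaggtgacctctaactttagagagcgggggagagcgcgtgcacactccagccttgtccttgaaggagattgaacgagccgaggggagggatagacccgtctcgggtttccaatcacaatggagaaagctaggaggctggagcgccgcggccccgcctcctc

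Slc2a1, Aldoa and Pkm each held 1 match at a listed start, so that 6 of the 10 members had ACGTG in such a window, against 18.5% of all 27025 genes listed. Of these 6, Slc2a1, Hk2, Pgk1, Pkm and Ldha were higher in RGC-like cells than in neurons and Aldoa was not called. Gapdh, Eno1, Eno2 and Ldhb had no match, of which Gapdh and Eno1 were higher and Eno2 and Ldhb lower. These members differ in how many starts are listed, which also changes the chance of a match. Of the other motifs searched, GGGCGG (the GC box) lay before 7 members against 35.4% of genes, CACGTG before 1 (Ldha) against 6.86%, and TATAAA before 1 (Eno2) against 14.3%. A match in these letters is no evidence that a factor binds there.

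The summed level of the 10 genes fell in steps from progenitors to neurons. RGC-like cells held 3609 and 3666 UMIs per 1000000 UMIs (CPM) in replicates 2 and 4. IPC-like cells held 2613 and 2612 CPM, excitatory neuron-like cells 1665 and 1629 CPM, and MGE interneuron-like cells 893 and 693 CPM. The 4 classes did not overlap, and the libraries differed within a class by less than the classes did from each other. Gapdh alone made up 38.8% to 47.3% of the sum in these classes, so the sum mostly follows the abundant members. From progenitors to excitatory neuron-like cells Ldhb and Eno2 did not fall with it. Levels below are CPM of the summed UMIs in replicates 2 and 4. Fold changes are from 1 edgeR quasi-likelihood fit over all 14169 genes tested, scaled by TMM, with Benjamini-Hochberg adjusted p-values. TMM scaling makes them differ from ratios of CPM: without it, the median of all genes moved by 0.22 on the log2 scale for RGC-like against excitatory neuron-like cells and by 0.16 for IPC-like cells against these neurons.

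**Figure D1:**
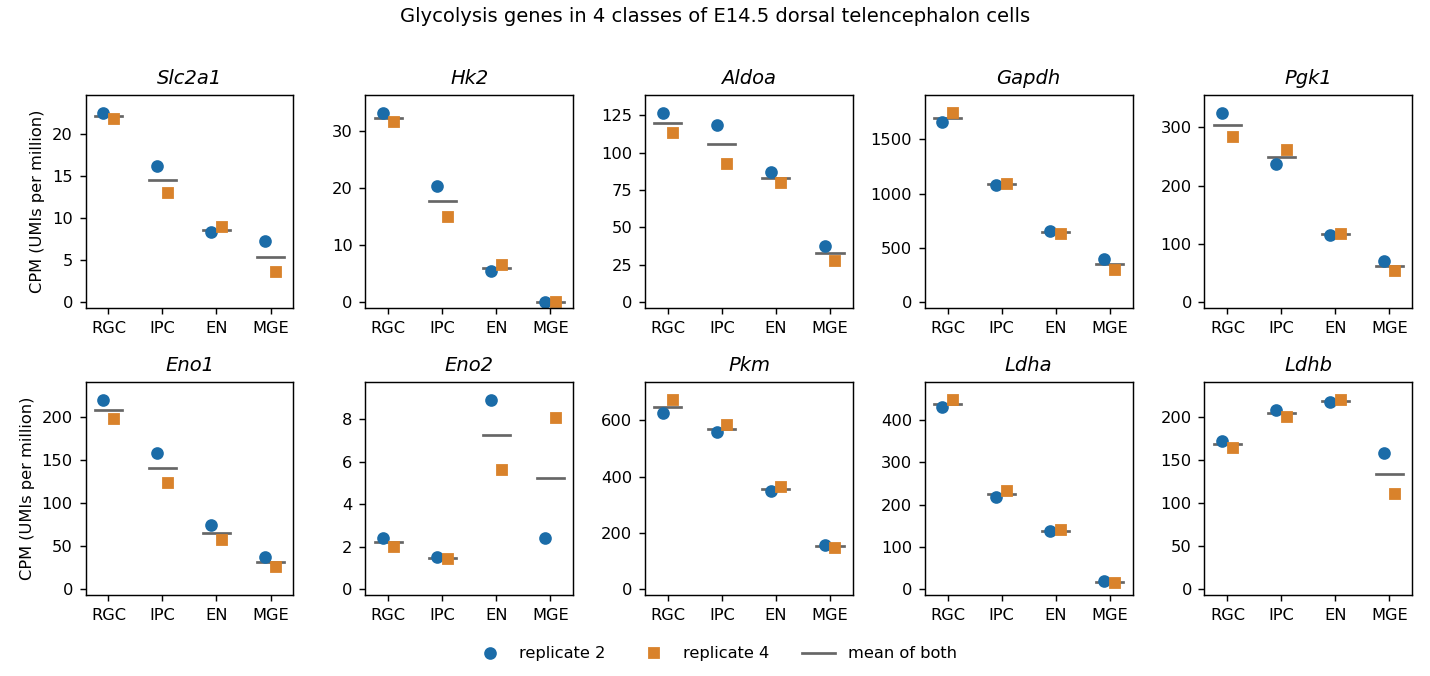
Level of each gene (vertical axis, CPM of summed UMIs) in RGC-like, IPC-like, excitatory neuron-like (EN) and MGE interneuron-like (MGE) cells; circles are replicate 2, squares replicate 4 and bars their mean. Mean levels of 8 genes step down from left to right, whereas Eno2 and Ldhb were at their highest in EN, Eno2 with wide spread.

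Between RGC-like and excitatory neuron-like cells, 9 of the 10 genes changed. Of these, 7 were higher in RGC-like cells (Slc2a1, Hk2, Gapdh, Pgk1, Eno1, Pkm and Ldha) and 2 lower (Eno2 and Ldhb), whereas Aldoa was not called. The median log2 fold change of the 10 genes was 1.15, against -0.05 over all genes tested. Of all genes tested, 54.9% were called in this comparison, 25.8% as higher and 29.1% as lower. IPC-like cells had 5 genes higher than these neurons (Hk2, Gapdh, Pgk1, Eno1 and Pkm) and 1 lower (Eno2), with 34.9% of all genes called, 15.7% higher and 19.2% lower, and the members' median was 0.57 against -0.03. RGC-like cells exceeded IPC-like cells in 3 genes (Hk2, Gapdh and Ldha) and fell below in 0. There 32.1% of all genes were called, 16.5% higher and 15.7% lower, and the median was 0.51 against 0.02. With 3 of 10 called, the members' share in that comparison was near that of all genes.

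**Figure D2:**
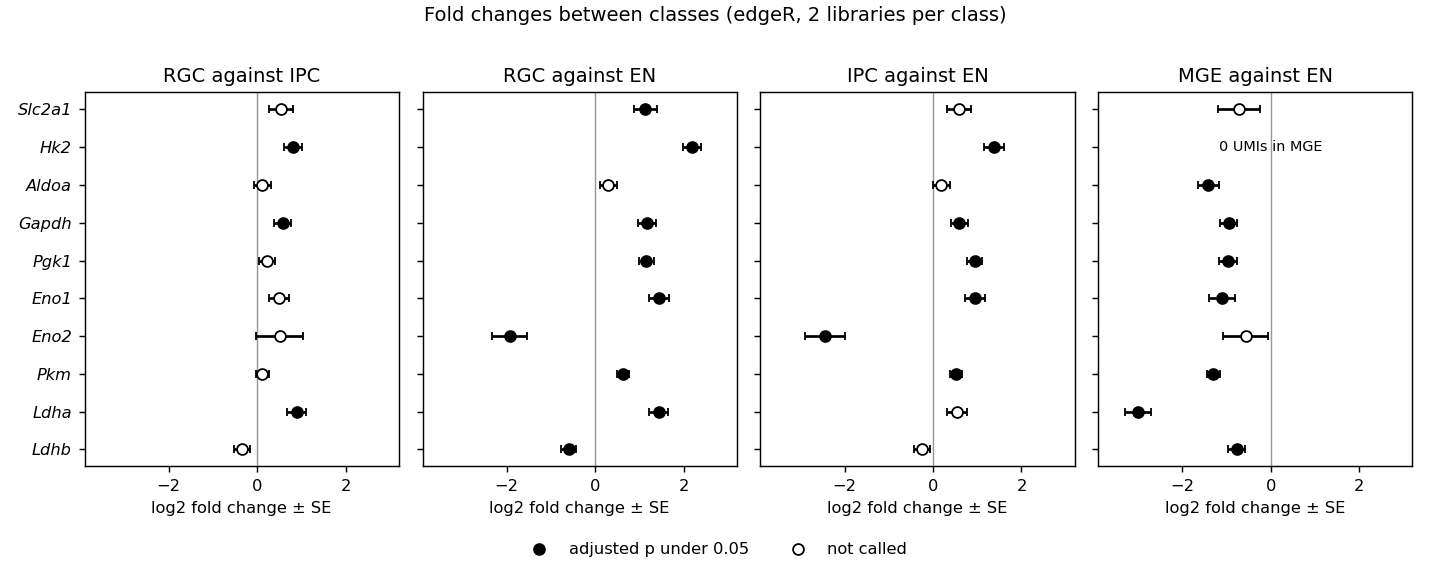
Log2 fold change of each gene (horizontal axis, bars are ± SE) in the 4 comparisons of classes; filled points have an adjusted p-value under 0.05. RGC-like cells against EN has 7 filled points on the right and 2 on the left, and MGE against EN has all its filled points on the left; Hk2 has no fitted point there because MGE held 0 UMIs of it.

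Slc2a1 encodes GLUT1, the transporter that brings glucose through the blood-brain barrier and into many cells. It stood at 22.4 and 21.8 CPM in RGC-like cells and at 16.1 and 13.0 CPM in IPC-like cells. Excitatory neuron-like cells held 8.33 and 8.92 CPM. RGC-like cells were thus above these neurons in both libraries, by 2.19-fold (log2 1.13 ± 0.26 SE, edgeR adjusted p = 0.0033). IPC-like cells lay between, and neither step was called on its own (RGC-like against IPC-like log2 0.54 ± 0.28, edgeR adjusted p = 0.164, and IPC-like against neurons log2 0.59 ± 0.28, edgeR adjusted p = 0.129).

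The highest Slc2a1 level of all classes was in endothelial cell-like cells, the lining of vessels, at 899 and 1099.9 CPM from 264 and 430 UMIs in 9 and 18 cells. Hem or choroid plexus-like cells followed with 74.6 and 59.2 CPM. Both classes were under 10 cells in 1 library and were left out of the fit. Meningeal cell-like cells held 32.1 and 10.7 CPM, a spread that covered the RGC-like and IPC-like levels. Cajal-Retzius cell-like cells, at 12.5 and 5.67 CPM, overlapped the excitatory and MGE interneuron-like ones. The summed level of 9 endothelial markers was 10.3 and 12.4 CPM in RGC-like cells, 4.73 and 13.3 CPM in IPC-like cells and 7.14 and 8.46 CPM in excitatory neuron-like cells, so it was higher in RGC-like cells than in these neurons in both libraries, as Slc2a1 was, and overlapped between IPC-like cells and neurons. The mural, meningeal, microglial and oligodendrocyte precursor marker lists summed higher in RGC-like than in excitatory neuron-like cells by a wider margin, and in the first 3 of them a single gene held most of the sum. The 7 mural markers summed to 68.2 and 64.7 CPM against 1.85 and 3.26 CPM, of which Notch3 held 64.1 and 60.5 CPM in RGC-like cells. Pdgfrb was also higher there, at 3.35 and 3.28 CPM against 0 and 0.368 CPM, while Kcnj8 and Abcc9 were at 0 in RGC-like cells. The 7 meningeal markers summed to 37.1 and 24.3 CPM against 3.70 and 4.28 CPM, with Lgals1 at 27.3 and 20.8 CPM and Lum at 0. Dcn was at 7.91 and 2.11 CPM against 0.257 and 0.598 CPM. The 9 microglial markers summed to 17.6 and 14.1 CPM against 5.76 and 5.10 CPM, with P2ry12 at 11.3 and 8.67 CPM. The oligodendrocyte precursor list was at 4.16 and 5.39 CPM against 0.206 and 0.598 CPM. In RGC-like cells different genes led it in each library: Sox10 was at 3.75 and 0.211 CPM, Olig2 at 0.402 and 2.85 CPM and Olig1 at 0 and 1.90 CPM. The Cajal-Retzius list went the other way, with 6.97 and 4.65 CPM against 89.2 and 106 CPM. The hem or choroid plexus list overlapped (23.6 and 18.8 CPM against 18.5 and 30.7 CPM), as did the erythroid list (75.6 and 214 CPM against 120 and 608 CPM). The part of these lists in the members' differences was not tested.

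**Figure D3:**
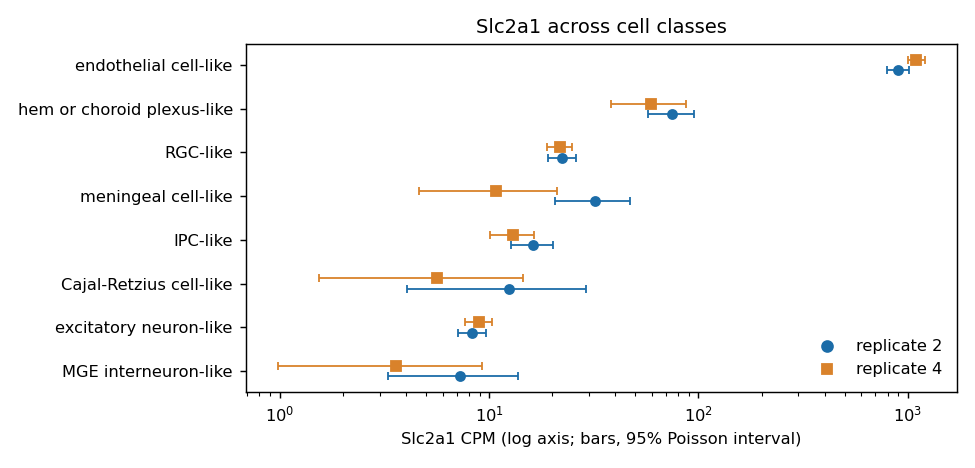
Slc2a1 level (horizontal log axis, CPM) by cell class, with 95% Poisson intervals that cover counting error alone; circles are replicate 2 and squares replicate 4. Endothelial cell-like cells stand apart at 899 and 1099.9 CPM, and the RGC-like points lie to the right of the excitatory neuron-like ones.

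Hk2 encodes hexokinase 2, which traps glucose in the cell by phosphorylation and is the inducible form of the enzyme. It changed most among the 7 genes that were higher in RGC-like than in excitatory neuron-like cells. RGC-like cells held 33.1 and 31.6 CPM of it, IPC-like cells 20.4 and 14.95 CPM, with 5.45 and 6.62 CPM in excitatory neuron-like cells. These 3 classes did not overlap in either library. RGC-like cells were 4.58-fold above neurons (log2 2.19 ± 0.21, edgeR adjusted p = 9.1e-06) and 1.76-fold above IPC-like cells (log2 0.81 ± 0.21, edgeR adjusted p = 0.0143). The call against IPC-like cells was kept in 18 of 20 alternatives. The IPC-like level exceeded the neuronal one 2.61-fold (log2 1.38 ± 0.22, edgeR adjusted p = 0.000746).

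MGE interneuron-like cells held 0 Hk2 UMIs in both libraries, among 1245446 and 1113022 UMIs. This allows up to 1.27 CPM over both (3 UMIs), so Hk2 was at least 4.77-fold lower there than in excitatory neuron-like cells, which held 250 UMIs. The excitatory cluster led by Rgs6 and Lrfn5 (48 and 68 cells) also held 0 Hk2 UMIs, which allows up to 1.74 and 1.33 CPM.

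Aldoa encodes aldolase A, which splits fructose 1,6-bisphosphate. It was at 126 and 113 CPM in RGC-like cells, 118 and 92.4 CPM in IPC-like cells and 87.0 and 79.6 CPM in excitatory neuron-like cells. The RGC-like and IPC-like ranges overlapped, and none of the 3 steps was called (RGC-like against neurons log2 0.30 ± 0.19, edgeR adjusted p = 0.201). Near copies Aldoart1 and Aldoart2 were listed at 0 in these 3 classes. The other feature named Aldoa held 0.938 and 1.27 CPM in RGC-like cells and less in IPC-like and excitatory neuron-like cells.

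Gapdh and Pgk1, which act in sequence and make the first ATP of the pathway, were both higher in progenitors than in neurons. Gapdh stood at 1655 and 1735 CPM in RGC-like cells, at 1075 and 1092 CPM in IPC-like cells and at 657 and 632 CPM in excitatory neuron-like cells. It fell at both steps, with RGC-like above IPC-like cells 1.497-fold (log2 0.58 ± 0.19, edgeR adjusted p = 0.0375) and IPC-like cells above neurons 1.51-fold (log2 0.59 ± 0.19, edgeR adjusted p = 0.0325). Each of these 2 Gapdh calls was lost in 5 of 20 alternatives, the latter among G1-like cells (edgeR adjusted p = 0.184) and at Leiden resolution 2, for example, whereas that of RGC-like cells against neurons (log2 1.17 ± 0.19, edgeR adjusted p = 0.00033) was kept in 20. Pgk1 went from 324 and 284 CPM among RGC-like to 237 and 261 CPM among IPC-like cells, which was not called (log2 0.22 ± 0.18, edgeR adjusted p = 0.373). In neurons it was at 116 and 117 CPM, and IPC-like cells were 1.92-fold above them (log2 0.94 ± 0.18, edgeR adjusted p = 0.0017). Whether the steps of the 2 genes differ was not tested.

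Eno1 and Eno2 encode the enolases, Eno2 being the neuron-specific form. They moved in opposite directions. Eno1 stood at 219 and 197 CPM in RGC-like cells, 158 and 123 CPM in IPC-like cells and 74.2 and 57.1 CPM in excitatory neuron-like cells. RGC-like cells were 2.72-fold above neurons (log2 1.44 ± 0.23, edgeR adjusted p = 0.00024). The step from RGC-like to IPC-like cells (log2 0.50 ± 0.23, edgeR adjusted p = 0.115) was called with the library as a replicate block (edgeR adjusted p = 0.0154). Eno2 was low throughout, with 2.41 and 2.01 CPM among RGC-like and 1.51 and 1.44 CPM among IPC-like cells from 7 to 19 UMIs per sum. Excitatory neuron-like cells held 8.89 and 5.61 CPM from 173 and 122 UMIs, 3.81-fold above RGC-like cells (log2 -1.93 ± 0.39 for RGC-like against neurons, edgeR adjusted p = 0.0015). Eno2 made up 1.05% ± 0.06 (SD, n = 2) of Eno1 and Eno2 UMIs in RGC-like cells, 1.05% ± 0.15 in IPC-like cells and 9.82% ± 1.24 in excitatory neuron-like cells. Such shares are of UMIs, not scaled by length, so they serve to compare classes and not the 2 enzymes. Some Eno1 UMIs may belong to the near copy Eno1b, which held 3.89 and 5.39 CPM in RGC-like cells.

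Pkm encodes pyruvate kinase, which makes pyruvate; its splice forms M1 and M2 are not separated in these counts. It stood at 625 and 670.3 CPM in RGC-like cells and at 559 and 582 CPM in IPC-like cells, which were not called as different (log2 0.12 ± 0.14, edgeR adjusted p = 0.568). Excitatory neuron-like cells held 351 and 364 CPM, below both progenitor classes. IPC-like cells were above them 1.43-fold (log2 0.52 ± 0.14, edgeR adjusted p = 0.0149).

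Ldha and Ldhb, which carry the last step, diverged. Ldha fell from 430.4 and 446 CPM in RGC-like cells to 219 and 232 CPM in IPC-like cells and 138 and 139.8 CPM in excitatory neuron-like cells. RGC-like cells were 1.86-fold above IPC-like cells (log2 0.89 ± 0.22, edgeR adjusted p = 0.00996), a call kept in 18 of 20 alternatives. They were 2.70-fold above neurons (log2 1.43 ± 0.22, edgeR adjusted p = 0.00022), whereas the step from IPC-like cells to neurons was not called (log2 0.54 ± 0.22, edgeR adjusted p = 0.0811). RGC-like cells held 172 and 164 CPM of Ldhb and IPC-like cells 209 and 200.5 CPM, with 218 and 219 CPM in excitatory neuron-like cells. RGC-like cells were below neurons (log2 -0.60 ± 0.18, edgeR adjusted p = 0.0137). That call was the least stable of the 9: it was lost in 10 of 20 alternatives, among them library size in place of TMM (log2 -0.38, edgeR adjusted p = 0.0898) and G1-like cells alone (log2 -0.03). Ldhb thus made up 27.8% ± 1.21 (SD, n = 2) of lactate dehydrogenase UMIs in RGC-like cells, 47.6% ± 1.74 in IPC-like cells and 61.2% ± 0.09 in excitatory neuron-like cells. In MGE interneuron-like cells it was 88.1% ± 0.34. The 4 classes did not overlap in this share, which does not depend on the scaling between classes.

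Within excitatory neuron-like cells the share of Ldhb spanned most of that range. These are 7 clusters, described without a test, since they were cut from the same cells. The 3 clusters led by Unc5d and Slc17a6 or by Adamtsl3 and Unc5d had Ldhb shares of 87.2% and 91.6%, 82.3% and 83.5%, and 74.4% and 71.7% in replicates 2 and 4. In the clusters led by Rgs6 and Lrfn5 and by Lrfn5 and Rgs6, shares were 41.1% and 37.0%, and 42.8% and 42.4%.

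Ldha and Ldhb contributed to this spread in opposite directions. Ldha was at 47.0 and 27.9 CPM in the Unc5d-led cluster with the highest share (51 and 73 cells), and at 202 and 206 CPM in the one led by Lrfn5 and Rgs6 (99 and 113 cells). Ldhb was at 319 and 304 CPM in the former and at 151 and 152 CPM in the latter. Eno2 was ordered like Ldha in these 2 clusters. It held 2.43 and 0.697 CPM in the Unc5d-led cluster, from 3 and 1 UMIs, and 14.6 and 12.4 CPM in that led by Lrfn5 and Rgs6. Over all 7 clusters, the mean level of Ldhb was highest in the former and that of Eno2 in the latter. The share of UMIs in ribosomal protein genes was similar in these 2 clusters (6.96% and 6.03% against 7.52% and 6.20%), whereas median UMIs per cell were 23079 and 20508 against 43506 and 33824. Of the Unc5d-led clusters, 2 had 5 and 6 of 8 IPC markers raised. Without them, RGC-like against excitatory neuron-like cells still had 8 members called, Ldhb no longer among them, with 55.8% of all genes called.

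**Figure D4:**
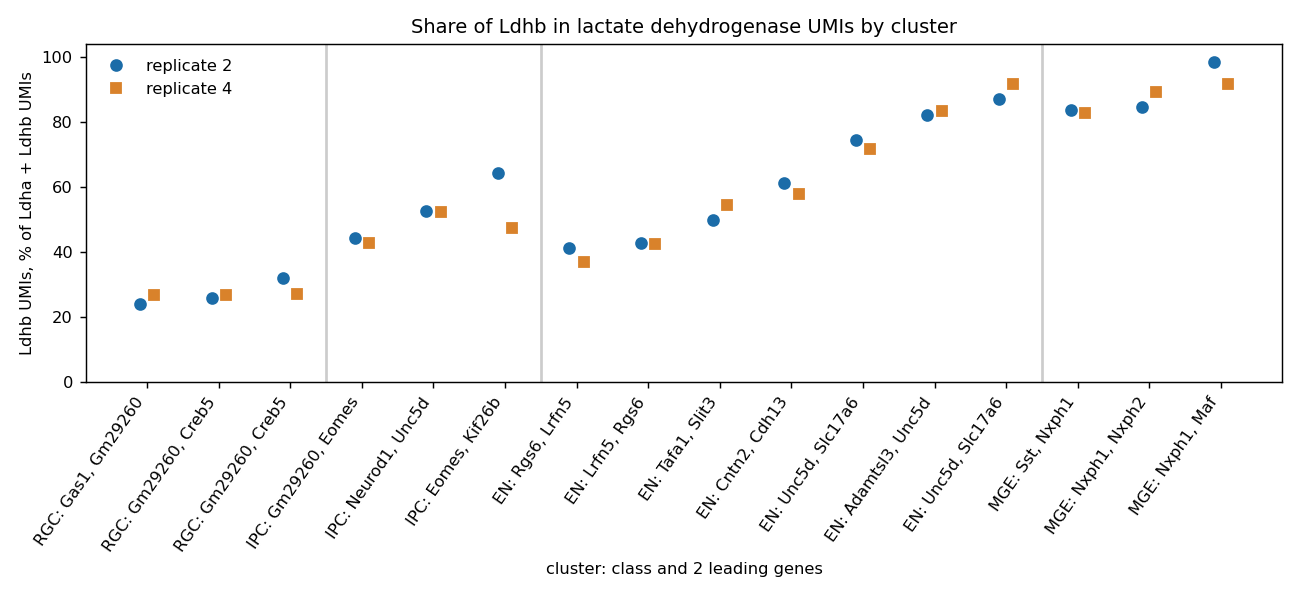
Ldhb UMIs as a percent of Ldha and Ldhb UMIs (vertical axis) in each cluster, named by class and 2 leading genes; circles are replicate 2 and squares replicate 4. RGC-like clusters lie at 24.0% to 32.1%, and the 7 excitatory clusters (EN) run from 37.0% to 91.6%.

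MGE interneuron-like cells had lower levels than excitatory neuron-like cells for 8 of the 10 genes and higher for 0. Over all genes tested 20.8% were called, 7.76% higher and 13.0% lower. The members' median log2 fold change was -1.04, also with Hk2 at its bound, against -0.09 over all genes. Ldha fell most after Hk2, at 20.9 and 15.3 CPM against 138 and 139.8 CPM in excitatory neuron-like cells, 8.05-fold lower (log2 -3.01 ± 0.30, edgeR adjusted p = 4e-05). Ldhb was at 158 and 110.5 CPM, 1.71-fold lower (log2 -0.78 ± 0.19, edgeR adjusted p = 0.0136), a call kept in 12 of 20 alternatives.

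Pkm (157 and 148 CPM) and Aldoa (37.7 and 27.9 CPM) were 2.47-fold and 2.66-fold lower. Gapdh, Pgk1 and Eno1 were lower 1.94-fold, 1.97-fold and 2.15-fold. Slc2a1, at 7.23 and 3.59 CPM from 9 and 4 UMIs, was not called (log2 -0.72 ± 0.48, edgeR adjusted p = 0.336). Eno2 went opposite ways in the 2 libraries, at 2.41 and 8.09 CPM from 3 and 9 UMIs.

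RNA quality and markers of other classes moved with this comparison. The Cajal-Retzius list summed to 540 and 261 CPM in MGE interneuron-like cells, against 89.2 and 106 CPM in excitatory ones. Reln held most of it (491 and 208 CPM), and Cacna2d2 was also higher, at 49.8 and 52.1 CPM against 4.99 and 5.06 CPM. Calb2 was lower, at 0 and 1.80 CPM against 9.66 and 2.07 CPM, and Trp73, Lhx5, Lhx1, Ebf3 and Nhlh2 were at 0 in both MGE libraries. The microglial list was at 13.6 and 14.4 CPM against 5.76 and 5.10 CPM, the endothelial list at 10.4 and 10.8 CPM against 7.14 and 8.46 CPM, and the meningeal list lower, at 0 and 1.80 CPM against 3.70 and 4.28 CPM. The part of these lists was not tested. Ribosomal protein genes took 4.33% and 3.05% of UMIs in MGE interneuron-like cells against 7.61% and 6.62% in excitatory neuron-like cells, and median UMIs per cell were 23450 and 10880 against 33979 and 24514. Among cells with at least 5% of UMIs in those genes (21 and 15 MGE interneuron-like cells), 5 of the 10 genes were called, all lower, with Ldha at log2 -3.00 (edgeR adjusted p = 0.00024). There Gapdh (edgeR adjusted p = 0.0631), Eno1 and Ldhb were no longer called, in a fit that also called fewer of all genes (10.6%). Thinned to 5000 UMIs per cell, 7 of the 9 that could be tested were lower, with 18.6% of all genes called.

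Ribosomal shares were also higher in both progenitor classes than in excitatory neuron-like cells (7.61% and 6.62%). They were 11.6% and 10.9% among RGC-like and 11.5% and 9.72% among IPC-like cells, and these 2 classes overlapped. With cells under 5% left out, 9 members were again called between RGC-like and excitatory neuron-like cells, with 52.9% of all genes called. Of 10 genes that respond to dissociation, 7 were higher and 2 lower in RGC-like than in excitatory neuron-like cells, led in level by Jun (284 and 273 CPM against 54.4 and 47.6 CPM). Against IPC-like cells 1 was higher. Between IPC-like cells and neurons 3 were higher and 2 lower, and from excitatory neurons to MGE interneuron-like cells 2 were higher and 1 lower. These counts stand against 54.9%, 32.1%, 34.9% and 20.8% of all genes called in the 4 comparisons, in that order. Their part in the members' changes was not tested.

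Among progenitors, levels of some members also differed with the cell cycle phase, scored from lists of S and G2/M genes and given as a description. Aldoa among RGC-like cells was at 256 and 222 CPM in G1 (41 and 41 cells), 128 and 123 CPM in S and 82.4 and 90.5 CPM in G2/M. Among IPC-like cells, those in G1 held 142 and 108 CPM and those in G2/M 23.5 and 38.8 CPM. The phase difference in Aldoa within RGC-like cells was thus larger than that between the classes.

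Ldha in IPC-like cells peaked in S phase, at 363 and 404 CPM against 230 and 222 CPM in G1-like and 67.9 and 140.9 CPM in G2/M cells. S-phase IPC-like cells were few (17 and 33). In RGC-like cells Ldha was at 565 and 474 CPM in G1-like, 451 and 493 CPM in S and 368 and 411 CPM in G2/M. Hk2 in RGC-like cells was at 49.0 and 60.0 CPM in G1 and at 28.2 and 28.0 CPM in G2/M. Gapdh was highest in S in both classes, with 1792 and 1860 CPM among RGC-like and 1363 and 1594 CPM among IPC-like cells.

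As excitatory neuron-like cells were nearly all G1-like (554 of 558 and 857 of 860), the fit was repeated on G1-like cells alone, an alternative chosen after seeing the data. It called 8 members higher in RGC-like cells than in neurons and 0 lower, with 38.9% of all genes tested called, 46.1% of these as higher. Aldoa was then among them (log2 1.29, edgeR adjusted p = 0.00267), and it was also higher than in IPC-like cells (log2 0.85, edgeR adjusted p = 0.0472). Eno2 could not be tested there.

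**Figure D5:**
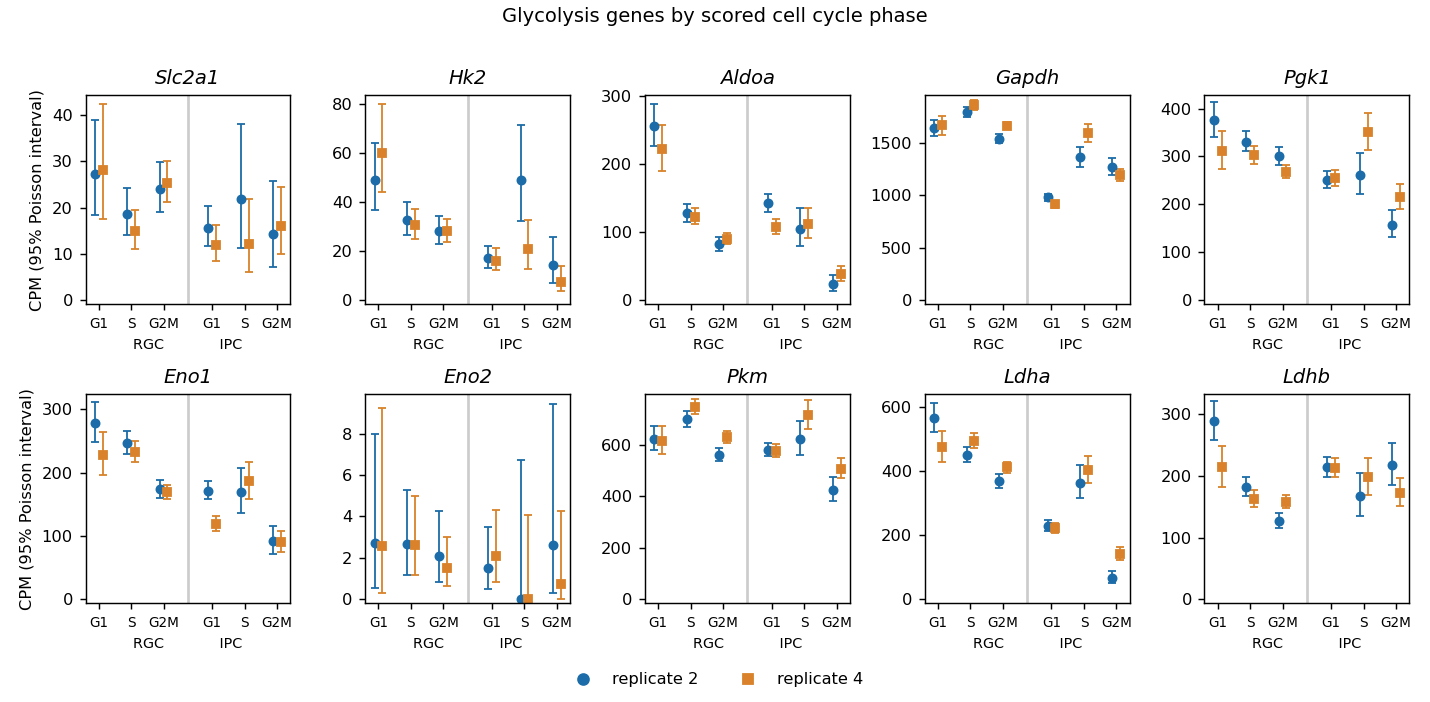
Level of each gene (vertical axis, CPM with 95% Poisson intervals for counting error) by scored phase in RGC-like and IPC-like cells; circles are replicate 2 and squares replicate 4. Aldoa steps down from G1 to G2M in RGC-like cells, from 256 and 222 CPM to 82.4 and 90.5 CPM, and Ldha peaks in S in IPC-like cells.

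Isozymes of the members did not all fall with them. The genes of this paragraph other than Aldoc were named after their values had been seen. Hk1, the constitutive hexokinase, was higher in neurons: RGC-like cells held 13.5 and 12.2 CPM and IPC-like cells 9.25 and 10.3 CPM, with 26.3 and 24.9 CPM in excitatory neuron-like cells (RGC-like against neurons log2 -1.22 ± 0.16, edgeR adjusted p = 7.8e-05). MGE interneuron-like cells, with 0 Hk2 UMIs, held 21.7 and 22.5 CPM of it. Slc2a3, which encodes the neuronal glucose transporter GLUT3, was at 10.9 and 4.86 CPM in RGC-like and 13.9 and 11.6 CPM in excitatory neuron-like cells (log2 -0.94 ± 0.36, edgeR adjusted p = 0.047). The level in IPC-like cells was 2.15 and 3.96 CPM. Aldoc, the aldolase form of glial cells, reached 329 and 299 CPM among RGC-like cells and 39.6 and 26.7 CPM among IPC-like cells, with 1.49 and 1.84 CPM in excitatory neuron-like cells (RGC-like against neurons log2 7.32 ± 0.33, edgeR adjusted p = 3e-08).

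Counts for the other genes of the pathway are to be read against the genes called among all those tested, 54.9% for RGC-like cells against neurons, 32.1% for RGC-like against IPC-like cells, 34.9% for IPC-like cells against neurons and 20.8% for the MGE class. Of 23 other glycolytic genes, 14 were tested. For RGC-like against excitatory neuron-like cells 6 were higher and 6 lower, with Aldoc and Pgam1 (phosphoglycerate mutase; log2 1.25 ± 0.12) the most raised, and Pfkp (platelet-type phosphofructokinase; log2 -3.66 ± 0.37) and Eno4 the most lowered. Pfkp stood at 2.68 and 1.80 CPM in RGC-like and 23.4 and 24.6 CPM in excitatory neuron-like cells. For IPC-like cells against neurons 5 were higher and 5 lower, and for RGC-like against IPC-like cells 3 were higher and 1 lower. Compared with excitatory neuron-like cells, the MGE class had 4 lower, led by Tpi1 (triosephosphate isomerase; 26.5 and 29.6 CPM against 117 and 111 CPM, log2 -2.10 ± 0.15, edgeR adjusted p = 4.3e-06) and Gpi1 (glucose phosphate isomerase; log2 -1.87 ± 0.17). The 1 higher gene was Bpgm (log2 1.66 ± 0.22), which makes 2,3-bisphosphoglycerate.

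Genes around the pathway varied. Of the 5 genes that make or break fructose 2,6-bisphosphate, the activator of phosphofructokinase, 4 were lower in RGC-like than in excitatory neuron-like cells and 0 higher, Pfkfb4 (log2 -1.68 ± 0.29) and Tigar (log2 -1.34 ± 0.27) most. Against IPC-like cells 1 (Tigar) was lower. IPC-like cells had 3 lower than neurons, and MGE interneuron-like cells had 0 called in either direction by edgeR, with 1 at an unadjusted p under 0.05 and 0 called by DESeq2. Among 6 lactate and pyruvate carriers, RGC-like cells had 1 higher and 3 lower than neurons. Mpc1, a subunit of the mitochondrial pyruvate carrier, was at 59.0 and 61.8 CPM against 133 and 125 CPM (log2 -1.32 ± 0.13, edgeR adjusted p = 8.4e-06). Slc16a1, which encodes the monocarboxylate transporter MCT1, was 1 of the 4 carriers lower in IPC-like cells than in neurons (log2 -1.57 ± 0.36). It was higher in RGC-like than in IPC-like cells (log2 1.73 ± 0.36), with Mpc1 lower. In MGE interneuron-like cells 2 were lower than in excitatory neuron-like cells.

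The pyruvate dehydrogenase complex and its kinases, which gate entry of pyruvate into the citric acid cycle, had 10 tested genes. For RGC-like against excitatory neuron-like cells 2 were higher, the kinases Pdk3 (log2 1.07 ± 0.20) and Pdk1 (log2 0.69 ± 0.23), and 2 lower, the kinase Pdk2 (log2 -0.64 ± 0.21) and the phosphatase Pdp1 (log2 -0.78 ± 0.22). The counts were 1 higher and 2 lower against IPC-like cells, 1 and 1 for IPC-like cells against neurons, and 1 and 2 with MGE interneuron-like cells set against excitatory ones. Of 17 citric acid cycle genes 4 were higher and 2 lower in RGC-like than in excitatory neuron-like cells, 3 and 1 against IPC-like cells, and 1 and 1 for IPC-like cells against neurons. MGE interneuron-like cells had 9 lower and 0 higher than excitatory ones, among them Idh3b (log2 -1.01 ± 0.18).

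In the pentose phosphate pathway, which branches off glucose 6-phosphate, 4 of 7 genes were higher and 2 lower in RGC-like than in excitatory neuron-like cells. Tkt (transketolase) was at 387 and 427 CPM against 154 and 150.1 CPM (log2 1.20 ± 0.17). Against IPC-like cells 2 were higher, IPC-like cells had 1 higher than neurons, and MGE interneuron-like cells had 2 lower than excitatory neuron-like cells. The genes of the HIF pathway and HIF targets outside glycolysis (16 tested) came next. Of them 3 were higher and 4 lower for RGC-like against excitatory neuron-like cells, 2 and 4 against IPC-like cells, 2 and 3 for IPC-like cells against neurons, and 0 and 4 with MGE interneuron-like cells set against excitatory ones. Egln3, a HIF hydroxylase, was at 19.4 and 14.6 CPM in RGC-like and 0.51 and 0.28 CPM in excitatory neuron-like cells. Ndrg1 went the other way, at 2.81 and 2.749 CPM against 33.3 and 26.1 CPM (log2 -3.63 ± 0.44, edgeR adjusted p = 5.9e-05). The medians of these lists lay between -1.06 and 0.54 in the comparison of RGC-like with excitatory neuron-like cells, below that of the members (1.15), while that of the dissociation genes was 1.20.

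The genes whose level over the 12 sums of the fit was most like that of a member, by Pearson's r of log2(CPM + 10), were Prdm16 (r = 0.99) and Inhbb (0.98) for Hk2, Tpi1 and Rpl29 (both 0.97) for Ldha, and Prdx2 and Tmem177 (both 0.93) for Ldhb. For Gapdh they were Pes1 (0.98) and Sf3a3 (0.97), for Pgk1 Shisa2 and Sf3a3 (both 0.97), for Eno1 Pes1 (0.98) and Pabpc1 (0.97), and for Aldoa Ndufs8 (0.99) and P4ha1 (0.98). For Pkm they were Ankrd6 (0.98) and Boc (0.97), for Slc2a1 Mipol1 and Tars (both 0.95), and for Eno2 Gna11 (0.93) and Dusp15 (0.91). The 12 points are 6 classes in 2 libraries and share library and depth, so these values describe likeness of pattern alone.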

How the data were processed

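The authors prepared droplet-based 3′ libraries and, per the labels, processed the reads with Cell Ranger 7.0.0 against mm10. The deposited values are UMI counts for each gene in each barcode, not normalized (40267872 and 49422007 UMIs, 1712 and 2589 barcodes). How intronic reads were counted is not given in the sources used here. Barcodes were kept from 1000 genes upward and up to 10% of UMIs from mitochondrial genes. Scrublet doublets (12 and 48) were left out. The libraries shared 3 barcodes, 1 of them retained in both. Cells were clustered with scanpy 1.11.5 (2000 variable genes without the glycolysis and pathway genes, 30 principal components, 20 neighbours, Leiden resolution 1). GABAergic clusters were clustered again to separate interneuron classes, and cell cycle phase was scored per cell. A cluster was named "like" a type from at least 3 raised markers (log2 ratio of at least 1, in at least 25% of cells); since names were built anew, they may not match those of the study. A cluster of 132 cells with all RGC markers raised but led by Ttr stayed unnamed, as did 2 shallow clusters.

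UMIs were summed per library and class. A single edgeR 4.0.16 fit (quasi-likelihood, TMM, filterByExpr) held 12 sums, from the 6 named classes that had 10 cells or more in both libraries. Besides the 4 compared classes, these were Cajal-Retzius cell-like (16 and 24 cells) and meningeal cell-like cells (18 and 30 cells). DESeq2 1.42.0 was an alternative. Genes were called at an adjusted p-value under 0.05. The steps were tested on simulated data. Sums of 1 library are paired: their deviations from class means correlated by 0.114 to 0.405 over the 6 pairs of the 4 compared classes, and the library block was an alternative. The members and gene lists were chosen with earlier results of these data known. Named list genes are up to 2 called per list and direction with the largest change, provided that both libraries had the same sign, except where the text says otherwise. Poisson intervals and upper limits (3 UMIs) cover counting error only. The result of 1 marker list in RGC-like cells is not reported here.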

Additional observations from a re-analysis of the deposited data

Results flagged for a closer look

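Members outside the comparisons were looked for in barcodes with under 1000 genes and more than 50% hemoglobin UMIs. These barcodes (57 in replicate 2 and 67 in replicate 4) entered no class. There is no control sample for them, and 3 UMIs were taken as the limit. Gapdh was above it at 116 and 154 CPM (35 and 99 UMIs), Aldoa at 13.2 and 10.9 CPM (4 and 7 UMIs) and Pkm at 26.5 and 6.24 CPM (8 and 4 UMIs). Hk2 was at 0 UMIs in both. The limit covers counting error only, and the share of free RNA in these barcodes was not measured, so the counts cannot be read as expression by the barcodes' own cells. The other 6 members were at or under 3 UMIs in at least 1 library.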

How the results depend on the processing

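Each comparison was repeated under 20 alternatives, of which 3 (G1-like cells alone, the Ttr-led cluster counted as RGC-like, and cells with at least 5% ribosomal UMIs) were chosen after seeing the data. Of 792 member fold changes, 717 kept direction and side of the threshold, 41 lost the call, 29 gained it and 5 reversed. Levels and isozyme shares in the 4 classes were also repeated under other filters and clusterings, thinned, and with 1 library left out. Within 1 SD (n = 2) of the main mean stayed 301 levels and 44 shares, while 99 levels and 36 shares moved beyond it. Between RGC-like and excitatory neuron-like cells, 8 of the 9 called members kept their call under each alternative that could test them, all but Ldhb. Of the 3 called between RGC-like and IPC-like cells, 0 did. Of the 6 called between IPC-like cells and neurons, 2 did (Hk2 and Eno2): by UMIs per cell Eno1, Pgk1, Pkm and Gapdh were lost, Pkm also with all genes with at least 1 count, and Gapdh in 4 others. Of the 8 called between MGE interneuron-like cells and neurons, 4 did (Hk2, Aldoa, Pkm and Ldha): Pgk1 was lost on thinning, Gapdh from 5% ribosomal UMIs, Eno1 there, at resolution 2 and with separate UMIs, and Ldhb in 8.

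Members called between RGC-like and IPC-like cells (3) were 1 with scaling by UMIs per cell (with 22.8% of all genes called), 1 from 500 genes per cell (28.8%), 0 at Leiden resolution 0.5 (18.1%), 5 at resolution 2 (35.5%), 5 of 9 when thinned to 5000 UMIs (28.0%), 6 when the fit held the compared classes alone (42.6%) and 6 with classes and test from separate UMIs (34.8%). Genes called there (4553) were 2345 at resolution 0.5, 2888 when thinned and 2248 in G1-like cells. In G1-like cells RGC-like against excitatory neuron-like cells had 4601 genes (7778). For IPC-like against these neurons, thinning gave 3177 genes (4951) and scaling by UMIs per cell 2 members (6; 23.7% of all genes). For MGE interneuron-like cells, genes called (2944) were 5626 by UMIs per cell, 1919 when thinned and 1495 among cells with at least 5% ribosomal UMIs, where 5 members (8) were called. Aldoa between RGC-like and IPC-like cells reversed to log2 -0.047 from 500 genes per cell and -0.15 with pathway genes in the clustering, and Ldhb to 0.16 in G1-like cells. Ldhb between IPC-like cells and neurons reversed to 0.15 at resolution 2 and 0.047 with pathway genes in the clustering. The cause was not tested.

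Scaling also moved the share of called genes that were higher. By UMIs per cell it was 66.6% in place of 51.3% for RGC-like against IPC-like cells, 60.2% in place of 47.0% for RGC-like cells against neurons, and 8.16% in place of 37.3% for MGE interneuron-like cells, where the median of all genes moved by -0.67. By library size alone it was 59.4% for RGC-like and 58.6% (45.0%) for IPC-like cells against neurons, and for MGE interneuron-like cells 45.4% with DESeq2's size factors and 48.9% by its Wald test, which changes the test as well. With the replicate block, 4 members were called between RGC-like and IPC-like cells, Eno1 being added, with 34.2% of all genes called. The block changed no other call of a member. With 1 library left out no test remains; the sign then differed between libraries for Eno2 in MGE interneuron-like cells.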
